A study of Saccharomyces cerevisiae with 30 samples.

Results

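The first response of translation to auxin was read from 4 of the 30 libraries of the study, chosen by their labels. These are the whole-cell footprint libraries (inputs) at 15 and 0 min of auxin in 2 series of budding yeast, the Sec63 series and the Ubc6 series. SRP is the signal recognition particle. Its protein Srp72 was fused to a degron that auxin triggers, in both series (srp72-AID-HA in the Sec63 strain, SRP72-AID-HA in the Ubc6 strain, each marked with LEU2). The groups were cells with 15 min of 500 µM auxin, 1 library in each series, against cells of the same strain with 0 min, again 1 library in each.

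Both strains came from S288C with leu2-delta-0, met15-delta-0 and ura3-delta-0, and both carried RPL16a-HA-TEV-AVI and RPL16b-HA-TEV-AVI, the ribosomal acceptor of biotin. The Sec63 strain had SEC63-mVenus-BirA, marked with HIS5, and OsTIR1-V5 at his3, marked with URA3. The Ubc6 strain had BirA-mVenus fused to the UBC6 tail anchor under the SEC63 promoter, together with OsTIR1-V5, at his3 and marked with HIS5. OsTIR1 is the plant receptor that auxin ties to the degron. Cells grew in SD medium with 0.125 ng/ml D-biotin and received 100 µg/ml cycloheximide for 2 min and then 10 nM biotin for 2 min at every auxin time. The study had no treated strain without the degron, so the effect of auxin itself and that of losing Srp72 cannot be told apart. Each condition had 1 library, and the labels do not say that series were grown as separate replicates. P-values therefore measure the spread between the libraries of a fit, which are all 15 inputs of the study unless another fit is named.

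SRP binds ribosomes that make secretory and membrane proteins and takes them to the endoplasmic reticulum (ER). Ribosome profiling sequences the stretch of message under each ribosome, so a gene's footprints reflect both how much message there is and how often it is translated, and these cannot be told apart here. Auxin is an indole acid. Yeast degrades aromatic amino acids by the Ehrlich pathway, which ends in such acids and their alcohols, and the exporter Pdr12 removes weak organic acids from the cell. Growing yeast spends much of its translation on ribosomes, and under many stresses it lowers ribosome biogenesis genes and raises genes of the general stress response (transcription factors Msn2 and Msn4) or the heat-shock factor Hsf1.

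Footprints in the 5890 listed genes totalled 113.5 M and 11.42 M in the 15 min libraries of the Sec63 and Ubc6 series, against 11.11 M and 2.042 M in their 0 min libraries. The other 11 inputs of the study, which also entered the fit, had 8.879 to 101.2 M. They are later times of both series and 3 further series, Tom20, Om45 and a Sec63 series that had no cycloheximide and 1 min of biotin. Levels are given as CPM, counts per M footprints after TMM scaling, a scaling that assumes that most genes do not change between libraries. A list's share of footprints has a Wilson 95% interval of at most 0.0523 percentage points to either side, for counting error only. The cells looked like a cells in all 4 libraries: 5 a-cell genes had 90.9 to 383 footprints per M listed, 3 alpha-cell genes had 0 to 3.94, and MET17 (MET15), deleted in these strains, had 0 counts. HIS3, the locus that the labels give for OsTIR1, had 1447 counts in the 15 min library and 121 in the 0 min library of the Sec63 series, and 1 and 0 counts in those of the Ubc6 series.

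The Ubc6 library at 0 min stood apart in several ways. It was the smallest input, and its listed genes held 57.66% of the total behind the authors' RPKM scaling, against 87.12 to 99.51% in the other 14 inputs. It also had the most footprints of some stress genes among the 5 inputs at 0 min. SSA4, an inducible cytosolic Hsp70, had 802 CPM there and 46.9 to 135 CPM in the others. PDR12 had 602 CPM against 73.7 to 206 CPM, BTN2 had 255 against 59.5 to 80.0 CPM, and HSP42 had 285 against 107 to 143 CPM. The part of this in the results below was not tested, and each list is therefore also counted with either series left out. With 1 series left out, the other holds the only 15 min library, while the remaining inputs still set the shared later times and the spread.

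SRP72 itself is the gene to check first, but the degron removes the protein and not the message, so its footprints do not show whether the protein was lost. SRP72 had 114 and 101 CPM in the 15 min libraries of the Sec63 and Ubc6 series, against 108 and 114 CPM at 0 min. The groups overlapped, with a fitted change of -0.03 ± 0.12 log2 units (SE, n = 2 series) and an edgeR adjusted p of 0.901. Here and below n counts the series with a 15 min library. The SE comes from the fit of all 15 inputs and is not the spread between these 2 series. None of the 8 genes of SRP and its receptor passed the test in either direction, also by DESeq2, and 2 had an unadjusted edgeR p under 0.05, with changes of -0.41 to 0.13. SRP54, the subunit that binds the signal sequence, had -0.28 ± 0.11 log2 units (edgeR adjusted p = 0.115), and SRP21 had -0.41 ± 0.15 (edgeR adjusted p = 0.0885).

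Of 5286 genes tested, 277 were higher (5.24%) and 448 were lower (8.48%) after 15 min of auxin, at an adjusted p under 0.05 by the quasi-likelihood test of edgeR over the 15 inputs, with series as the blocking factor. The median over all genes was 0.02 log2 units. All 725 genes called had the same sign in both series, against 3623 of all 5286 tested. The calls rest on these same changes, so this agreement is no separate evidence. More than 2-fold changes were found for 70 of the genes higher and 159 of the genes lower, and more than 4-fold changes for 10 and 15. Without the Sec63 series 66 genes were higher and 139 lower, and without the Ubc6 series 38 and 43. With the series lacking cycloheximide left out, 156 genes were higher and 281 lower, and with the 4 libraries alone 114 (2.16%) and 233 (4.41%). Scaled by library totals, 191 were higher and 482 lower, and centred on the median, 342 and 389. The fit sets each series' level from all its times, with the 30 and 60 min terms shared among series, so the other inputs move the estimate as well as its error. A fitted change can therefore lie outside the changes of both series, as for UGA1, fitted at 1.06 with 1.26 in the Sec63 series and 1.29 in the Ubc6 series.

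**Figure D1:**
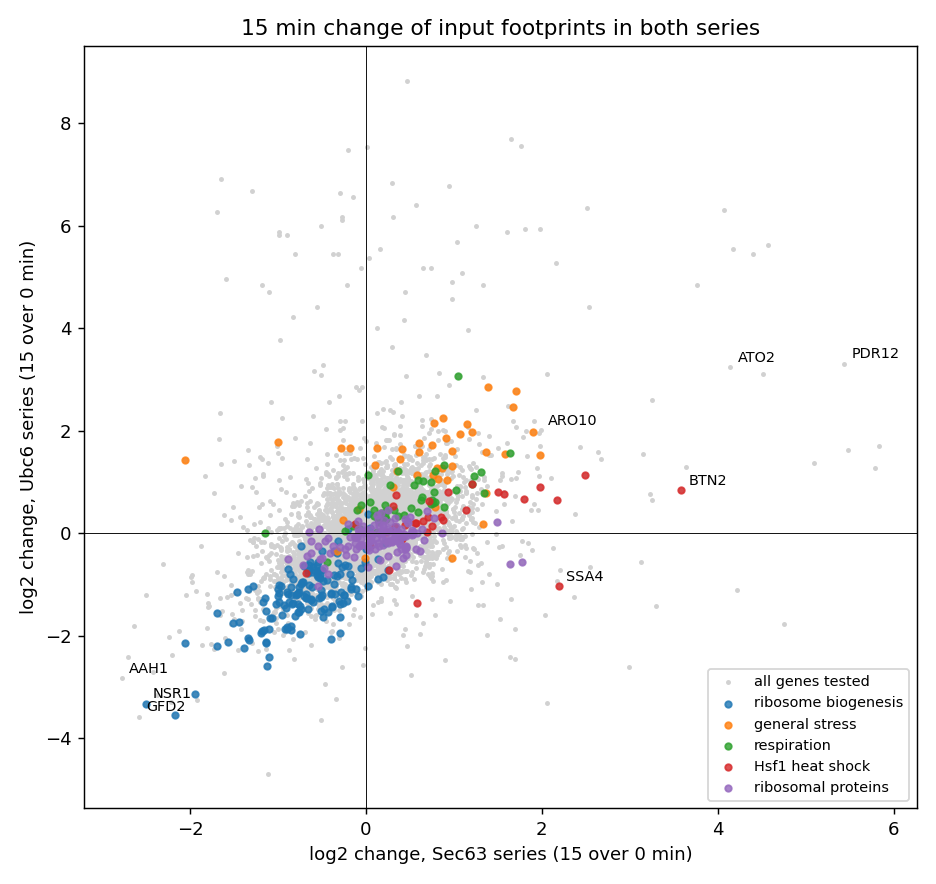
Change of each gene's input footprints between 15 and 0 min of auxin in log2 units, in the Sec63 series (horizontal axis) and the Ubc6 series (vertical axis). Grey points are all 5286 genes tested and coloured points are 5 gene lists. Most genes for ribosome biogenesis lie below 0 on both axes, general stress genes lie mostly above 0 on both, and SSA4 has opposite signs.

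In amino acid catabolism a few enzymes passed the test. In the Ehrlich list 3 of 18 members were higher and 2 were lower, with a median of 0.12. Over all genes 5.24% were higher and 8.48% lower, so the count lower is near that share. The 3 that rose carry out the opening steps. ARO9, an aromatic aminotransferase, had 578 and 573 CPM in the 15 min libraries of the Sec63 and Ubc6 series, against 147 and 148 CPM at 0 min. ARO10, the decarboxylase that follows it, had 471 and 579 CPM at 15 min, against 119 and 144 CPM at 0 min. BAT2, the cytosolic branched-chain aminotransferase, had 495 and 477 CPM against 213 and 184 CPM. For each of them both 15 min libraries lay above both 0 min libraries, and both series gave nearly the same size of change.

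The fitted changes were 2.01 ± 0.28 log2 units for ARO9 (SE, n = 2 series, edgeR adjusted p = 0.000957), 2.02 ± 0.36 for ARO10 (edgeR adjusted p = 0.00328) and 1.29 ± 0.10 for BAT2 (edgeR adjusted p = 2.32e-05). ARO8 and BAT1, the paralogs that also serve synthesis, did not pass, at 0.17 ± 0.15 log2 units (edgeR adjusted p = 0.49) and -0.39 ± 0.12 (edgeR adjusted p = 0.0501). ARO80, the activator of ARO9 and ARO10, had 21.9 and 21.4 CPM against 16.4 and 14.5 CPM at 0 min and did not pass either (edgeR adjusted p = 0.0652). At the far end of the pathway both alcohol acetyltransferases fell, ATF1 with 11.6 and 7.71 CPM against 27.2 and 38.3 CPM and ATF2 with 27.5 and 19.0 CPM against 79.8 and 44.0 CPM. Their fitted changes were -1.72 ± 0.39 log2 units (edgeR adjusted p = 0.0119) and -1.25 ± 0.20 (edgeR adjusted p = 0.00219). Counted without the Sec63 series 2 members were higher and 1 lower, and without the Ubc6 series 1 was higher and 0 lower.

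Outside the Ehrlich pathway, 6 of 37 tested genes of amino acid and nitrogen catabolism were higher and none lower (38 were listed). The shares over all genes were 5.24% higher and 8.48% lower. DUR12, urea amidolyase, had 102 and 89.6 CPM in the 15 min libraries, against 30.7 and 39.2 CPM at 0 min, and rose by 1.62 ± 0.23 log2 units (edgeR adjusted p = 0.000983). GAD1 and UGA1, the decarboxylase and the transaminase of the GABA shunt from glutamate, rose by 1.51 and 1.06 log2 units (edgeR adjusted p = 0.000983 and 0.00135). GAD1 had 176 and 238 CPM against 57.7 and 70.0 CPM, and both series were again alike. The others that rose were BNA3, a kynurenine aminotransferase (0.95), CAR2, the ornithine transaminase of arginine degradation (0.89), and PUT3, the activator of proline use (0.42). On the 4 libraries alone BNA3 passed, while CAR2 (0.80, edgeR adjusted p = 0.0515) and PUT3 (0.44, edgeR adjusted p = 0.329) did not. With the Sec63 libraries left out, 5 members of this list were higher, and without the Ubc6 series 2 were.

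**Figure D2:**
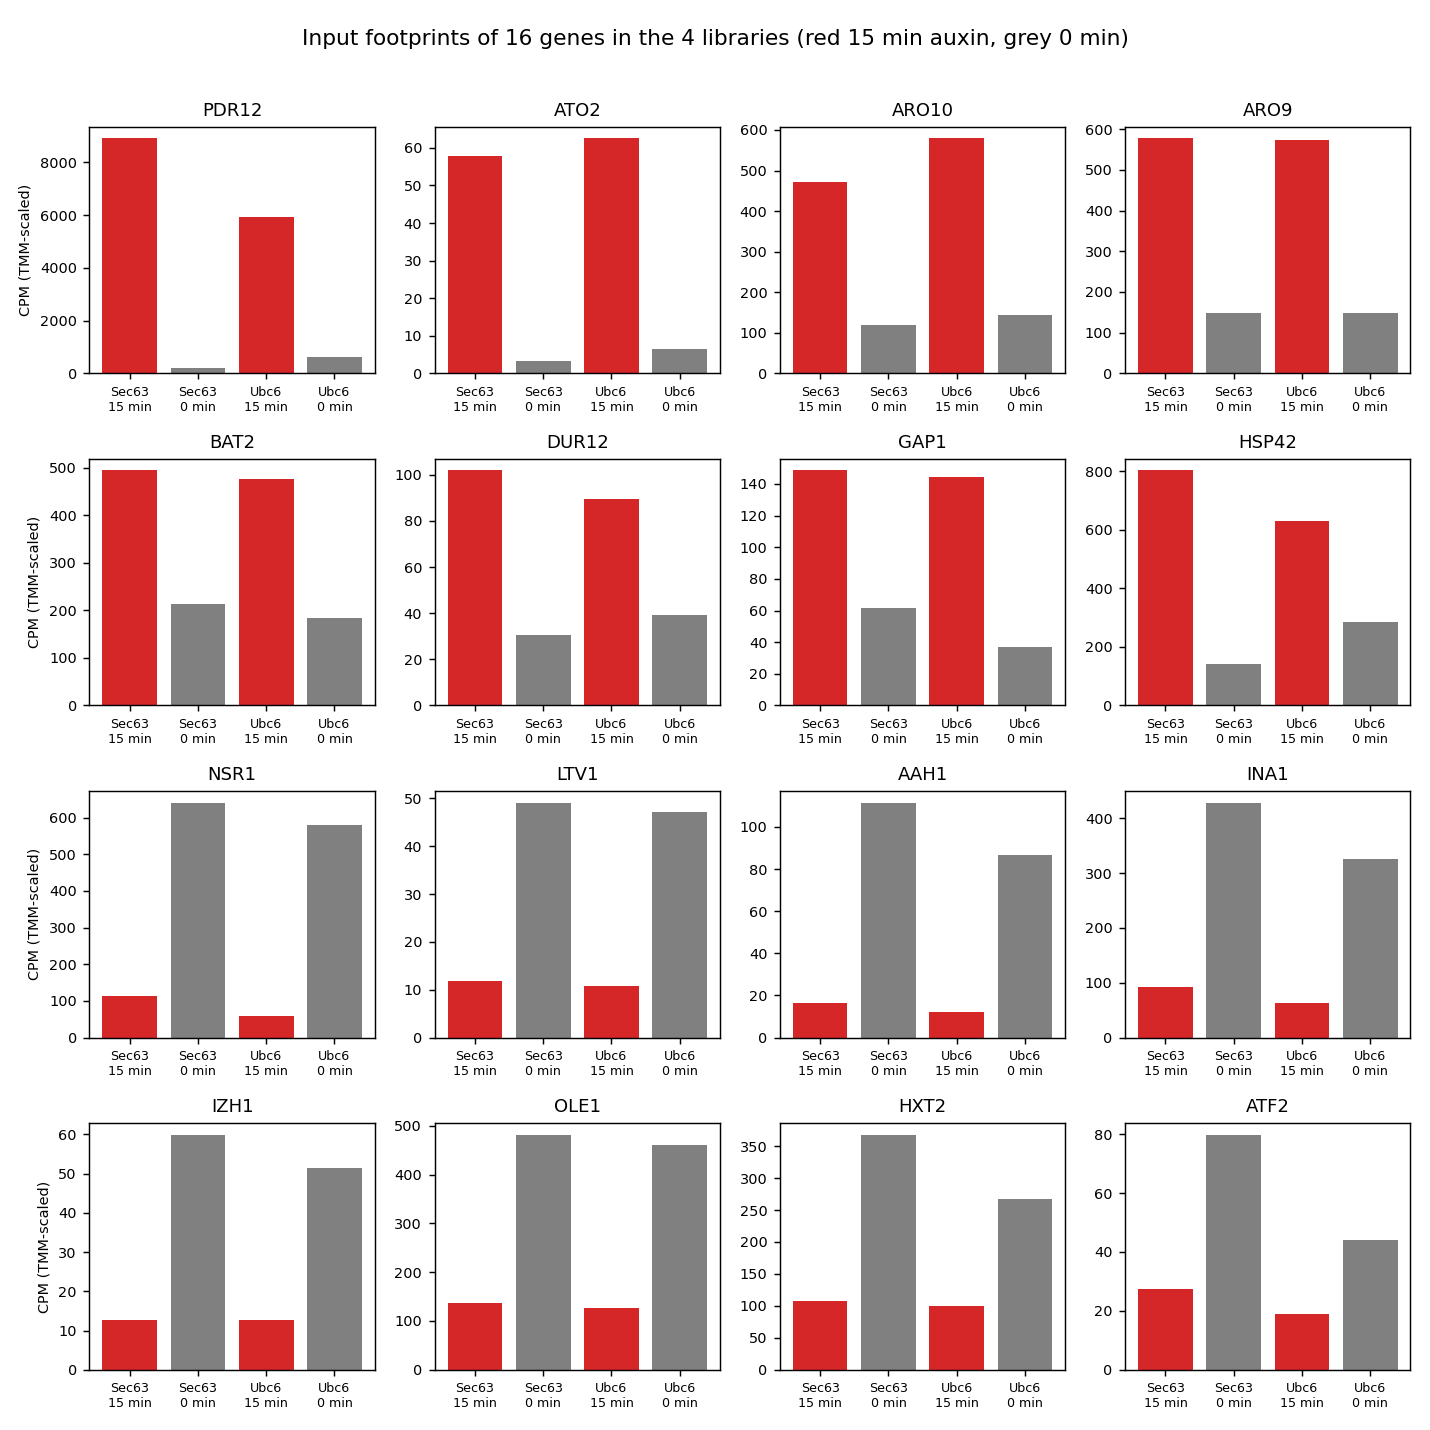
CPM of 16 genes in the 4 input libraries, with the 15 min library (red) left of the 0 min library (grey) in the Sec63 series and then in the Ubc6 series. Bars are single libraries and each panel has its own scale from 0. The first 8 genes are higher in both 15 min libraries and the last 8 are lower.

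The exporter PDR12 had the largest rise of all genes called. PDR12 (YPL058C, chromosome XVI, 445842 to 450377), in R64 coordinates, had 8914 and 5932 CPM in the 15 min libraries of the Sec63 and Ubc6 series, against 206 and 602 CPM in their 0 min libraries. Its fitted change was 4.86 ± 0.52 log2 units (SE, n = 2 series, edgeR adjusted p = 0.000456), a 29.0-fold rise. The change was 5.44 in the Sec63 series and 3.30 in the Ubc6 series, whose 0 min library already held more of this message than the other 4. The term for a difference between series in the fit of the 15 inputs, Ubc6 minus Sec63, was -1.07 ± 0.97. It did not pass after adjustment (edgeR unadjusted p = 0.295). Other inputs move this term too, so it is not the plain difference of 5.44 and 3.30. In the fit without the Ubc6 series PDR12 had 5.78 log2 units and in the fit without the Sec63 series 4.26.

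PDR12 was the single member of its list that rose. Of 33 tested exporters and their regulators (35 were listed) 1 was higher and 1 lower, with a median of -0.06. Neither count is above the share over all genes, 5.24% higher and 8.48% lower. AQR1, a transporter of short-chain acids, was the one that fell, with 3.36 and 2.60 CPM against 12.3 and 11.9 CPM and a fitted -2.01 ± 0.28 log2 units (edgeR adjusted p = 0.000957). PDR5, the main drug exporter, had 1481 and 1301 CPM against 1426 and 1476 CPM, and SNQ2, another, had 223 and 189.7 CPM against 318 and 263 CPM. Neither passed, with 0.07 ± 0.15 log2 units for PDR5 (edgeR adjusted p = 0.813) and -0.31 ± 0.28 for SNQ2 (edgeR adjusted p = 0.511). With either series left out, the counts stayed at 1 higher and 1 lower.

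Few amino acid permeases passed the test. Of 30 tested (32 listed) 4 were higher and 2 lower, with a median of 0.06, while 5.24% of all genes were higher and 8.48% lower, so the count lower is not above the share over all genes. GAP1, the general permease that yeast makes on poor nitrogen sources, had 149 and 144 CPM in the 15 min libraries, against 61.3 and 37.0 CPM at 0 min, and rose by 1.46 ± 0.28 log2 units (edgeR adjusted p = 0.00472). DIP5, which takes up glutamate and aspartate, had 538 and 544 CPM against 289 and 278 CPM and rose by 0.90 ± 0.13 (edgeR adjusted p = 0.00131). MUP3, a methionine permease, and AGP2 rose by 1.29 and 0.58 log2 units. The permeases that fell were TAT1 and TAT2, permeases of aromatic amino acids, at -0.54 ± 0.13 log2 units (edgeR adjusted p = 0.0203) and -0.52 ± 0.15 (edgeR adjusted p = 0.0336). GAP1 did not pass with either series left out (1.43 without Sec63 and 1.48 without Ubc6), and a fit with no series block gave -0.17. With the Sec63 series left out 1 permease was higher and 0 lower, and likewise with the Ubc6 series left out.

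Among the other plasma membrane transporters falls outnumbered rises. Of 59 tested (64 listed) 3 were higher and 16 lower, against 5.24% and 8.48% of all genes. The median was -0.31, and the count higher is near the share over all genes. The largest rise was that of ATO2, a putative exporter of ammonium or acetate, with 57.8 and 62.6 CPM in the 15 min libraries against 3.25 and 6.61 CPM at 0 min. Its fitted change of 4.18 ± 0.23 log2 units (edgeR adjusted p = 7.97e-07) rested on 5874 and 795 counts at 15 min and on 33 and 15 counts at 0 min. OPT2 and the sulfate permease SUL2 also rose, by 1.54 and 0.72 log2 units.

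Transporters of uridine, uracil, choline, inositol and iron were among those that fell. FUI1, the uridine permease, had 8.11 and 6.77 CPM against 50.8 and 23.8 CPM and -2.32 ± 0.33 log2 units (edgeR adjusted p = 0.00118), and the uracil permease FUR4 had -1.69. HNM1 (choline) had -1.24 log2 units, and ITR1 (inositol) had 463 and 429.9 CPM against 939 and 761 CPM. FTR1, the iron permease, had 93.8 and 146 CPM against 212 and 409 CPM, and FET3, the oxidase that works with it, had 289 and 714 CPM against 999 and 1934 CPM. The iron regulon shares 6 listed genes with the transporter list. Of its 26 tested members (30 listed) 9 were lower and 1 higher, against 8.48% and 5.24% of all genes. They included the siderophore transporter SIT1 (-1.20) and the ferric reductase FRE1 (-1.83), and the one that rose was CTH1, an RNA-binding protein (0.89). Outside the iron list 11 of 53 transporters were lower and 3 higher. When the Sec63 series was left out, 6 transporters of the larger list were lower and 1 higher, and without the Ubc6 series 7 and 1. The iron list had 3 lower in each case.

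Of 10 tested genes of hexose transporters and glucose sensors (19 matched by name) 2 were lower and none higher, against 8.48% of all genes lower. HXT2 had 107 and 99.2 CPM against 368 and 267 CPM, with -1.74 ± 0.27 log2 units (edgeR adjusted p = 0.00163). HXT4 had 2.38 and 3.07 CPM against 8.36 and 7.93 CPM. The Tom20 input at 0 min, also in the fit, had 36.1 CPM of it. The fitted change of HXT4 was -1.89 log2 units (edgeR adjusted p = 0.0493). Neither passed with 1 of the series left out.

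Genes for ribosome biogenesis showed the widest change. Of 151 members, all tested, 123 were lower and none higher, against 8.48% of all genes lower, and the median was -1.03. Together they took 0.894% and 0.837% of footprints in the 15 min libraries of the Sec63 and Ubc6 series, against 1.49% and 1.82% at 0 min. Both 15 min shares lay below both 0 min shares. The median change was -0.66 in the Sec63 series and -1.19 in the Ubc6 series, and 141 members fell below 0 in both. In the fit without the Sec63 series 64 members were lower, and without the Ubc6 series 8 were, with list medians of -1.27 and -0.86.

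NSR1, a nucleolin needed for pre-rRNA processing, had the smallest p of the list. It had 113 and 57.8 CPM in the 15 min libraries, against 641 and 581 CPM at 0 min, and -2.80 ± 0.27 log2 units (SE, n = 2 series, edgeR adjusted p = 0.000232). LTV1, which helps small subunits mature and leave the nucleus, had 11.7 and 10.7 CPM against 49.1 and 47.1 CPM and -2.21 ± 0.23 log2 units (edgeR adjusted p = 0.000386). Helicases fell as well, DBP2 with 144 and 94.7 CPM against 468 and 436 CPM and DHR2 with 4.28 and 2.91 CPM against 19.4 and 34.4 CPM. UTP23, of the small subunit processome, had -2.34 log2 units and SDA1, needed for export of large subunits, -1.53. NOP56, a core protein of box C/D snoRNPs, was among the 28 that did not pass, at -0.53 ± 0.17 log2 units (edgeR adjusted p = 0.0562).

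Of 30 genes of the polymerases that make ribosomal RNA and tRNA and their factors 14 were lower and 1 higher. This compares with 8.48% and 5.24% of all genes, and the median was -0.68. RPA43, a subunit of polymerase I, had 46.5 and 37.6 CPM against 107 and 91.2 CPM and -1.27 ± 0.18 log2 units (edgeR adjusted p = 0.000983). RRN3, which recruits polymerase I to its promoter, had 21.3 and 19.8 CPM against 41.6 and 33.5 CPM, and RPO31, the largest subunit of polymerase III, had -0.71 log2 units. The member that rose was TFC3, a subunit of the polymerase III factor TFIIIC, at 0.72 ± 0.14 log2 units (edgeR adjusted p = 0.00556). Once the Sec63 series was left out, 3 members were lower, and without the Ubc6 series 1.

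Ribosomal protein genes rarely passed the test at 15 min. Of 137 cytosolic ribosomal protein genes 1 was lower and none higher, the median was 0.01, and the range was -0.53 to 0.60. They held 18.5% and 16.2% of footprints at 15 min in the Sec63 and Ubc6 series, against 17.8% and 17.6% at 0 min. The series moved in opposite directions here, and many pairs are near-identical paralogs whose reads the authors' counting could split. The 1 that passed was RPL18B (-0.43 ± 0.13 log2 units, edgeR adjusted p = 0.0473). Among 48 tested translation factors (49 listed) 3 were lower, which is not above the 8.48% of all genes lower. GCD10 (-1.44 log2 units) and GCD14 (-0.68) encode a tRNA methyltransferase, and TIF4631 (-0.47) is a form of the initiation factor eIF4G. Without the Sec63 series 1 translation factor was lower and without the Ubc6 series 0, and no ribosomal protein passed in either case.

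**Figure D3:**
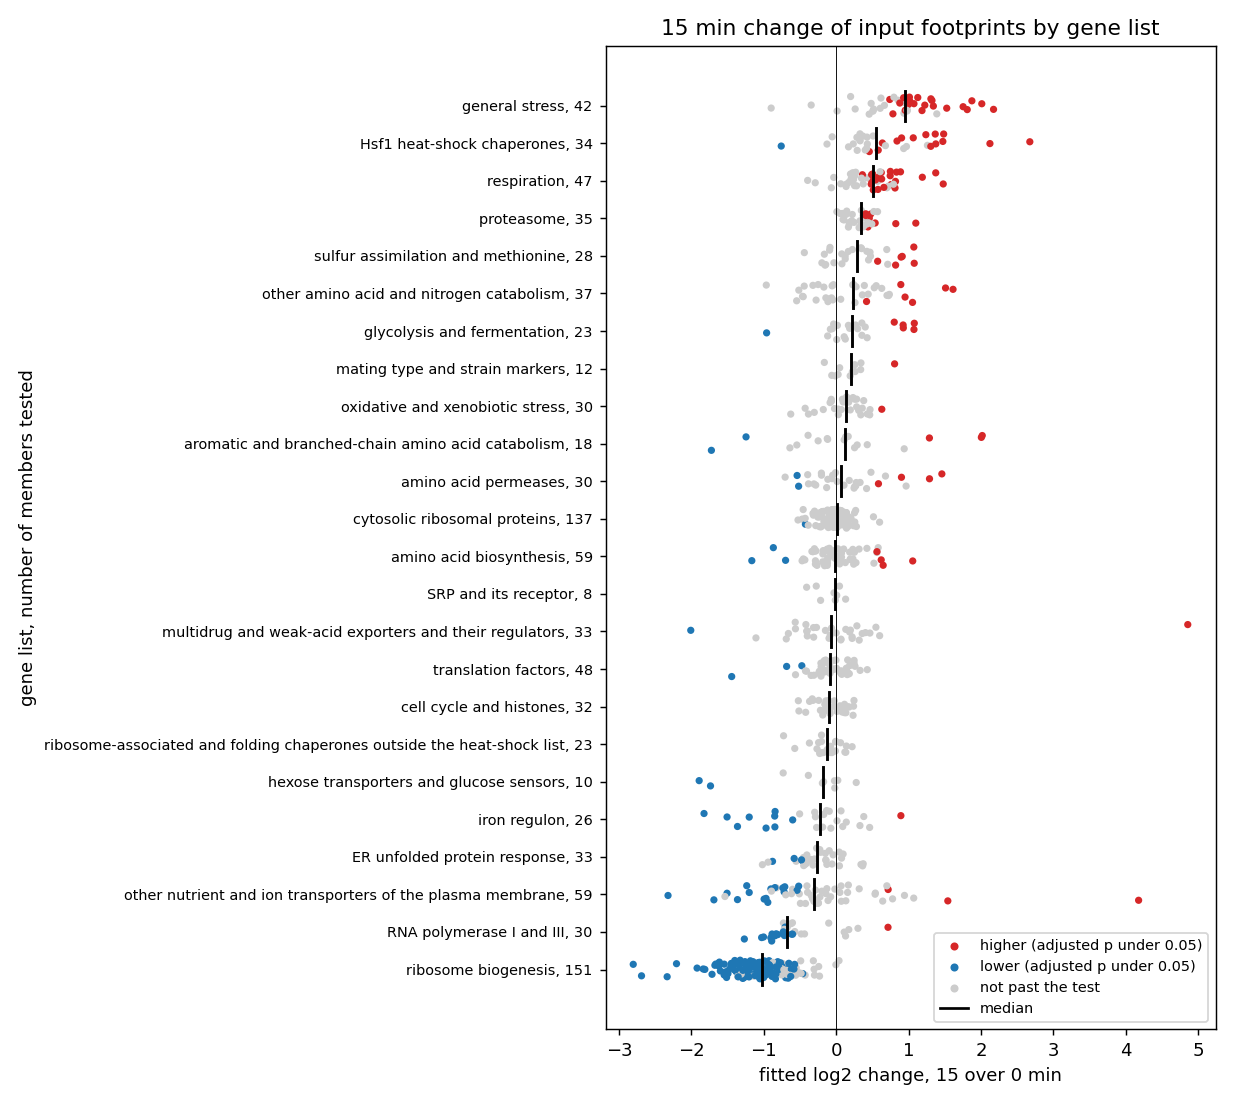
Fitted log2 change at 15 over 0 min for each tested member of the 24 gene lists, ordered by their medians (black bars). Red points are higher and blue points lower at an adjusted p under 0.05, and vertical scatter has no meaning. Ribosome biogenesis lies lowest with a median of -1.03 and general stress highest with 0.95, while PDR12 and ATO2 lie far from the rest of their lists.

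Of 34 tested chaperones and other targets of the heat-shock factor Hsf1 (35 listed) 14 were higher and 1 lower, against 5.24% of all genes higher, and the median was 0.55. The list took 4.59% and 3.87% of footprints in the 15 min libraries of the Sec63 and Ubc6 series, against 2.83% and 3.30% at 0 min. The median change was 0.67 in the Sec63 series and 0.21 in the Ubc6 series, whose 0 min library stood apart in SSA4, BTN2 and HSP42. Without the Ubc6 series 9 members were higher, with a median of 0.76, and without the Sec63 series 2 were, with a median of 0.47.

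HSP42, a small heat-shock protein that gathers misfolded proteins, had 802 and 629 CPM in the 15 min libraries, against 143 and 285 CPM at 0 min. It rose by 2.13 ± 0.32 log2 units (SE, n = 2 series, edgeR adjusted p = 0.00135). Without the Ubc6 series it had 2.65, and without the Sec63 series it did not pass, at 1.79 (edgeR adjusted p = 0.0807). BTN2, a sorter of aggregates, had 959.9 and 455 CPM against 80.0 and 255 CPM and rose by 2.68 ± 0.50 (edgeR adjusted p = 0.00458). Its change was 3.58 in the Sec63 series and 0.84 in the Ubc6 series, and it did not pass without the Sec63 series, at 1.74. Its paralog CUR1 rose by 1.49 ± 0.20 log2 units (edgeR adjusted p = 0.000895) and passed with either series left out.

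The folding machines of the cytosol were among the rises. HSP82, an Hsp90, had 4022 and 2225 CPM against 1153 and 1402 CPM and rose by 1.31 ± 0.20 (edgeR adjusted p = 0.00153). The disaggregase HSP104 had 2479 and 1999.8 CPM against 833 and 1184 CPM. Exchange factors of Hsp70 rose by 1.47 (FES1) and 1.37 log2 units (SSE2), the J proteins APJ1 and SIS1 by 1.24 and 0.84, and the mitochondrial disaggregase HSP78 by 1.07. SSA1, an Hsp70 near-identical to SSA2, rose by 0.90. CNS1, a co-chaperone of Hsp90, was the member that fell, at -0.76 ± 0.18 log2 units (edgeR adjusted p = 0.0163).

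SSA4 went in opposite directions, with 617 and 389 CPM in the 15 min libraries of the Sec63 and Ubc6 series, against 135 and 802 CPM at 0 min. Its fitted change of 1.26 ± 0.79 log2 units did not pass (edgeR adjusted p = 0.325). The fitted term for a difference between series, -1.98 ± 1.42 for Ubc6 minus Sec63, did not pass after adjustment either (edgeR unadjusted p = 0.189). Other inputs move this term, so it is not the plain difference of the changes, 2.19 in the Sec63 series and -1.04 in the Ubc6 series. In the fit without the Ubc6 series SSA4 had 2.69 log2 units, and in the fit without the Sec63 series 0.13, each with 1 library at 15 min.

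Other folding factors showed less. Among 23 ribosome-associated and folding chaperones outside the heat-shock list none passed by edgeR in either direction, none passed by DESeq2, and 3 had an unadjusted edgeR p under 0.05, with a median of -0.12. In the ER unfolded protein response list, which covers the lumenal folding genes, 4 of 33 tested members were lower (34 listed) and none higher, near the 8.48% of all genes lower. Those 4 were SCJ1 (-0.88), a lumenal J protein, EUG1 (-0.46), of the disulfide isomerase family, CNE1 (-0.48), calnexin, and IRE1 (-0.58), the sensor of the response. KAR2, the lumenal Hsp70, had 2281 and 1776 CPM in the 15 min libraries against 1828 and 3264 CPM at 0 min and did not pass (edgeR adjusted p = 0.918). The list's share was 0.633% and 0.677% at 15 min in the Sec63 and Ubc6 series, against 0.663% and 1.07% at 0 min, the last being the value of the library that stood apart. With either series left out, none of its members passed.

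Some protein degradation genes rose. Of 35 members of the proteasome list 8 were higher, against 5.24% of all genes, and none were lower. All 35 fitted values were above 0, and the median was 0.35. By the changes of the single series, 25 members were above 0 in both and 2 were below 0 in both. The uniform sign is thus one of the fit, which other inputs also move. RPN4, the transcription factor of the proteasome, had 145 and 129 CPM against 59.8 and 62.1 CPM and rose by 1.10 ± 0.17 log2 units (edgeR adjusted p = 0.00163). UBI4, polyubiquitin, whose repeats resemble other ubiquitin genes, rose by 0.82. Subunit genes moved less, such as RPN3 (0.54) and PRE3 (0.46). No member passed with either series left out.

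Many general stress genes rose. Of 42 tested targets of Msn2 and Msn4 (43 listed) 21 were higher, against 5.24% of all genes, and none were lower. Their median was 0.95, the highest of the 24 lists. Their share of footprints was 0.777% and 1.32% at 15 min in the Sec63 and Ubc6 series, against 0.440% and 0.557% at 0 min. CTT1, cytosolic catalase, had 93.9 and 174 CPM against 28.7 and 25.5 CPM and rose by 2.01 ± 0.37 log2 units (SE, n = 2 series, edgeR adjusted p = 0.00431). Genes of trehalose and glycogen storage rose too, with 1.81 for PGM2, 1.53 for TSL1 and 1.01 for TPS1.

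The largest fitted change of that list was 2.17 ± 0.26 log2 units for ROQ1, a regulator of protein quality control (edgeR adjusted p = 0.000601). PNC1, nicotinamidase, had 533 and 638 CPM against 207 and 215 CPM. With the Sec63 libraries left out, 11 general stress genes were higher and without the Ubc6 series 2. Of 30 genes of oxidative and xenobiotic stress, many of them targets of Yap1, 1 was higher and none lower, not above the 5.24% of all genes higher. It was the glutaredoxin GRX2 (0.63 ± 0.14 log2 units, edgeR adjusted p = 0.0129). With the Sec63 and then the Ubc6 series left out GRX2 had 0.65 and 0.64 and did not pass.

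Many respiratory genes also rose. Of 47 genes of the TCA cycle and oxidative phosphorylation 23 were higher and none lower, against 5.24% and 8.48% of all genes. The median was 0.50. CIT1, citrate synthase, had 978 and 885 CPM in the 15 min libraries, against 314 and 299.5 CPM at 0 min, and rose by 1.48 ± 0.20 log2 units (edgeR adjusted p = 0.000929). IDH2, of isocitrate dehydrogenase, had 1258 and 967 CPM against 508 and 422 CPM and rose by 1.19 ± 0.15 (edgeR adjusted p = 0.000669). QCR10 of the bc1 complex and COX4 of cytochrome oxidase rose by 0.81 and 0.89. When the Sec63 series was left out, 5 members were higher and without the Ubc6 series 3, while the list medians were 0.49 and 0.46. In glycolysis and fermentation 5 of 23 genes were higher, among them TDH1 (1.08) and ENO1 (0.93), and 1 was lower, GPD2 (-0.96), of glycerol synthesis. Once the Sec63 series was left out, 3 of these were higher and without the Ubc6 series 0.

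Amino acid synthesis showed no common direction. Of 59 genes under the activator Gcn4 4 were higher and 3 lower, with a median of -0.02. Over all genes 5.24% were higher and 8.48% lower, so the count higher is near that share and the count lower is under it. GLN1, glutamine synthetase, had 2007 and 1646 CPM against 1013 and 759 CPM and rose by 1.06 ± 0.12 log2 units (edgeR adjusted p = 0.000601), and ASN1, asparagine synthetase, rose by 0.56. LYS4 and ARG8, of lysine and arginine synthesis, had -1.17 and -0.87. In sulfur assimilation 6 of 28 tested genes were higher (30 written, 28 matched) and none lower, including MET3, ATP sulfurylase (0.91), STR3 (1.08) and the regulator MET28 (1.07). Without the Sec63 series 3 sulfur genes and 1 Gcn4 target were higher, and without the Ubc6 series 2 and 1. None of 32 cell cycle and histone genes passed by edgeR or was higher by DESeq2, which called 1 lower, and 2 had an unadjusted edgeR p under 0.05. Of the 12 tested mating and strain marker genes 1 was higher, near the 5.24% of all genes. It was MFA1, a-factor (0.81 ± 0.24 log2 units, edgeR adjusted p = 0.044). Without the Sec63 series MFA1 had 0.85 and did not pass.

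The lists left 176 of the genes higher and 271 of the genes lower without a list. The largest fall of all was that of GFD2, with 2.19 and 1.81 CPM in the 15 min libraries against 13.2 and 22.0 CPM at 0 min. AAH1, adenine deaminase, had 16.3 and 12.2 CPM against 112 and 86.8 CPM. GFD2 had -3.20 ± 0.55 log2 units (edgeR adjusted p = 0.00291) and AAH1 -2.78 ± 0.20 (edgeR adjusted p = 1.15e-05). Both series gave AAH1 nearly the same change, -2.77 and -2.83. TOD6, a repressor of ribosome biogenesis genes, fell to 4.39 and 2.83 CPM, against 20.6 and 28.2 CPM at 0 min. YGR079W, INA1 and IZH1, the last a membrane protein of zinc homeostasis, had -2.55, -2.33 and -2.18 log2 units. OLE1, the fatty acid desaturase of the ER, had 138 and 127 CPM against 482 and 459.9 CPM and -1.94 ± 0.23 log2 units (edgeR adjusted p = 0.000601).

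Rises outside the lists included BSC5, FMP23, YIR016W and PIC2, a mitochondrial carrier, with 2.92, 2.03, 1.90 and 1.77 log2 units. On the 4 libraries alone FMP23 and PIC2 passed. BSC5 (2.20, edgeR adjusted p = 0.185) and YIR016W (1.83, edgeR adjusted p = 0.144) did not. The change of BSC5 was 3.23 in the Sec63 series and 0.75 in the Ubc6 series. BSC5 rested on 4 counts at 0 min in each series, with 3.96 and 2.99 CPM in the 15 min libraries against 0.394 and 1.76 CPM at 0 min. YIR016W had 5.11 and 7.32 CPM against 2.26 and 0.440 CPM, with 1 count at 0 min in the Ubc6 series. PIC2 had 34.6 and 63.0 CPM against 9.74 and 15.9 CPM, alike in both series.

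The difference between series in the 15 min change was tested with an interaction term in the fit of the 15 inputs. Other times and series move this term too, so it can depart from the plain difference of the single-series changes. No gene passed by edgeR and none by DESeq2, while 89 genes had an unadjusted p under 0.05. The smallest p belonged to YGR161W-C, an uncharacterised gene, with 1.31 ± 0.31 log2 units for Ubc6 minus Sec63 (edgeR unadjusted p = 0.0013). This does not show that the series responded alike, since each series has 1 library at each time.

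A later time was read in other series. In 3 other series (Sec63 without cycloheximide, Tom20 and Om45, 7 inputs in all), 951 genes were higher (18.0%) and 1122 lower (21.2%) after 30 min of auxin. Leaving out the Sec63 series that lacked cycloheximide, these were 166 and 219, and scaled by library totals 507 and 1762. Since these inputs also move the 15 min estimates of the larger fit, they are set beside the fit of the 4 libraries alone, which shares no library with them. Of its 114 genes higher at 15 min 63 were also higher there (55.3%) and 1 was lower. Of its 233 genes lower at 15 min 194 were also lower there (83.3%) and 5 were higher. PDR12 had 4.34 log2 units at 15 min in the 4 libraries and 5.36 ± 0.16 at 30 min in those series (edgeR adjusted p = 0.000344). ARO10 had 1.97 at 15 min and 2.30 at 30 min, BAT2 1.27 and 1.28, and NSR1 -2.93 and -2.43. GLN1, glutamine synthetase, was the 1 gene with a rise at 15 min and a fall there, at -1.37 ± 0.12 log2 units (edgeR adjusted p = 0.00337). DUR12 and CIT1 had -0.11 and 0.09 there and did not pass. Times, strains and, in 1 series, cycloheximide and biotin time (1 min) differ between these comparisons, and whether 15 and 30 min differ was not tested.

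**Figure D4:**
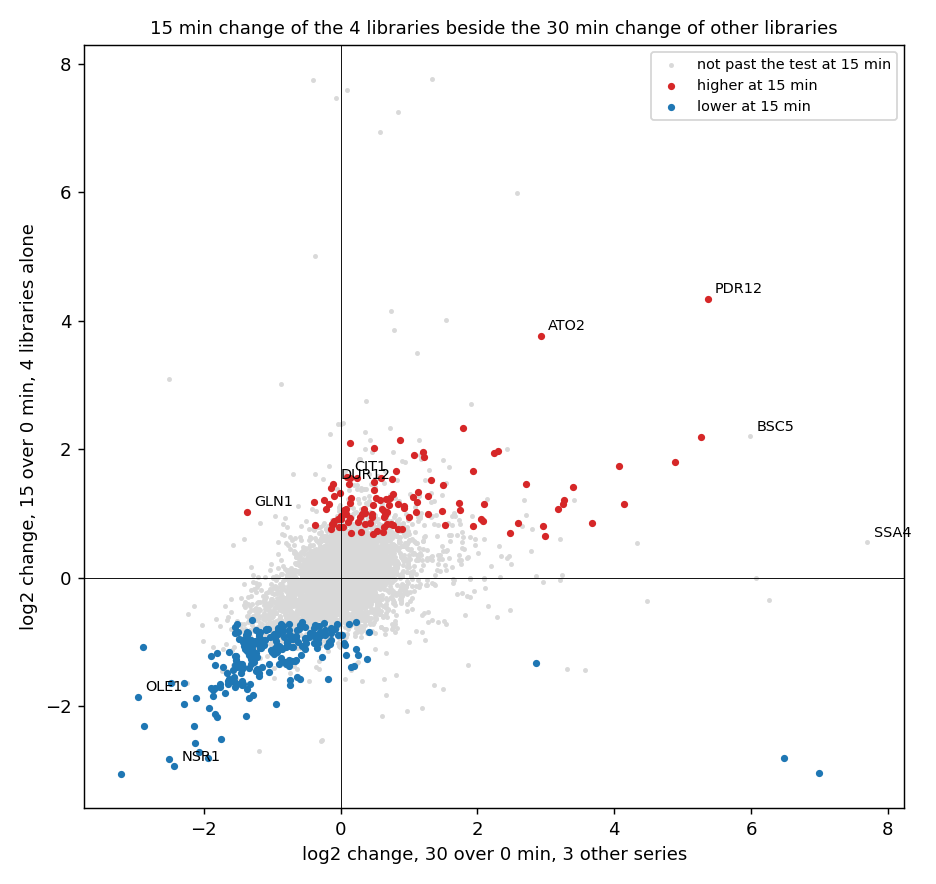
Log2 change at 15 over 0 min fitted on the 4 libraries alone (vertical axis) and at 30 over 0 min in the 3 other series (horizontal axis), for each gene tested. Red and blue points are the 114 genes higher and 233 lower at 15 min in that fit and grey points the rest. PDR12 and ATO2 lie far up and right, most blue points lie below 0 on both axes, and GLN1 has opposite signs.

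Lists differed in what those series showed at 30 min, where 18.0% of all genes were higher and 21.2% lower. Of 34 Hsf1 targets 10 were higher at 15 min in the 4 libraries, with a median of 0.41, and 32 at 30 min in those series, with a median of 2.11. Ribosome biogenesis had 74 of 151 lower at a median of -0.94 at 15 min, and 149 at a median of -1.27 at 30 min. Respiration had 10 of 47 higher at a median of 0.52 at 15 min, and at 30 min 5 higher and 2 lower, both under the shares over all genes, at a median of 0.03. Oxidative and xenobiotic stress had 23 of 30 higher at 30 min and the proteasome 35 of 35.

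Shares of footprints within the Sec63 and Ubc6 series show the same lists over 0, 15, 30 and 60 min. These values share the 0 min libraries and are given side by side with no test. Ribosome biogenesis held 1.49, 0.894, 0.726 and 0.531% in the Sec63 series at these times, and 1.82, 0.837, 0.793 and 0.501% in the Ubc6 series. The Hsf1 list held 2.83, 4.59, 11.5 and 14.4% in the Sec63 series, and 3.30, 3.87, 10.5 and 14.5% in the Ubc6 series. The step from 0 to 15 min held most of the fall of ribosome biogenesis, and the step from 15 to 30 min held the larger part of the rise of heat-shock genes.

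Some messages were highest at 15 min. PDR12 had 206, 8914, 4483 and 2219 CPM over 0, 15, 30 and 60 min in the Sec63 series. In the Ubc6 series it had 602, 5932, 3391 and 1521 CPM. CIT1 had 314, 978, 429.7 and 169.9 CPM in the Sec63 series. Respiratory genes as a list peaked at 15 min in both series, at 1.55 and 1.67% of footprints. ARO10 stayed high, with 119, 471, 494 and 561 CPM in the Sec63 series.

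**Figure D5:**
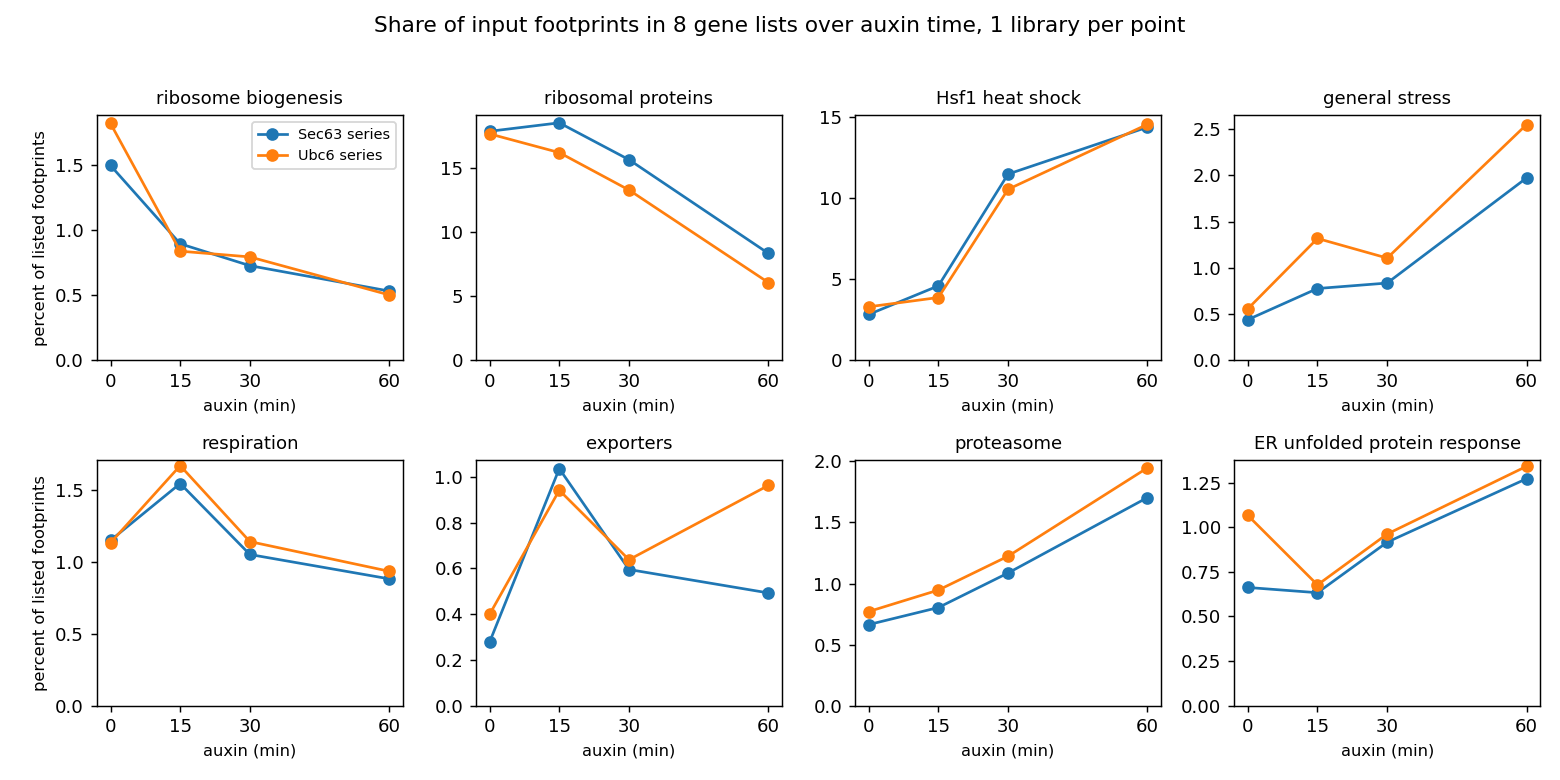
Percent of listed input footprints in 8 gene lists at 0, 15, 30 and 60 min of auxin, in the Sec63 (blue) and Ubc6 (orange) series, with 1 library per point and vertical axes from 0. Ribosome biogenesis drops most between 0 and 15 min, Hsf1 targets climb most between 15 and 30 min, ribosomal proteins are lowest at 60 min, and respiration peaks at 15 min.

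Pulldown libraries of the same cultures, collected by biotin on ribosomes near the ER, gave a second reading of the 15 min change in other libraries. Of the 277 genes higher in inputs 226 were above 0 in both pulldown series and 9 below 0 in both, against 1839 and 1723 of all 5286 tested. Of the 448 genes lower 388 were below 0 in both and 7 above. A pulldown level depends on a gene's place of translation as well as its footprints, and these cannot be told apart here. GAP1 had -0.28 in the Sec63 pulldowns and 0.75 in the Ubc6 pulldowns, and AQR1 had -4.08 and -3.69 log2 units. PUT3, called higher in inputs, had -1.08 and -0.95. PDR12, itself a membrane protein, had 4.72 and 3.72.

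The genes called were also described by where they were translated before auxin. By a pulldown over 2-fold above its input at 0 min in the Sec63 series without cycloheximide, whose input also entered the fit, 26 of the genes higher (9.39%) and 105 of the genes lower (23.4%) were enriched at the ER, against 741 of all tested (14.0%). By the same measure at Om45, on the mitochondrial surface, 44 of the genes higher (15.9%) and 17 of the genes lower (3.79%) were enriched, against 603 of all tested (11.4%). In the fit of the 4 libraries alone, 4 of the genes higher (3.51%) and 57 of the genes lower (24.5%) were enriched at the ER, and 12 (10.5%) and 12 (5.15%) at Om45. Median gene length was 1146 bases among the genes higher and 1504.5 among the genes lower, against 1268.5 over all tested. These are descriptions with no test.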

How the data were processed

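The deposited tables give, per the file headers, 1 count and 1 RPKM value per gene and library. Counts are the authors' footprint counts per gene and were used as deposited. The authors' RPKM values served only to find the total behind their scaling. Per the submitters' processing notes, the tools were TopHat2 2.1.1, Bowtie 1.1.2 and CASAVA without a version, and the build was sacCer3. Collapsing of molecular identifiers, strand and multiply matching reads have no source here, so counts of close paralogs (SSA1, TDH1, ENO1, HXT genes, ribosomal proteins, UBI4) and of overlapping or antisense genes are uncertain. The labels give a sample barcode for the Sec63 libraries and none for the Ubc6 libraries. A RefSeq table (assembly R64) named 5887 of 5890 genes.

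Libraries were grouped by the labels. Counts of the 15 inputs were fitted with edgeR 4.0.16 in R 4.3.3 (glmQLFit and glmQLFTest, 2-sided, TMM scaling, series as block, auxin time as factor, 7 residual degrees of freedom) for genes with a mean of at least 20 counts, with Benjamini-Hochberg adjustment over 5286 genes and a threshold of 0.05. SE is the change divided by the square root of F. Changes of single series and of pulldowns are differences of log2 CPM with a prior count of 1. The 3 other series and the 4 libraries were also fitted alone, with 2 and 1 residual degrees of freedom. On simulated counts for this comparison (5286 genes, 50 changed at each size) the fit recovered 47 and 44 of those changed by 1 and -1 log2 units. It recovered 50 and 50 of those changed by 2 and -2, with 5 false calls. Whether this holds for the real counts, where later times also move the estimate, was not tested. The simulation therefore does not give the share of false calls among the 725 genes called. Alternatives were other samples, scalings, filters, DESeq2 1.42.0, no block, each series left out and thinning.

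The libraries and the 24 gene lists (973 tested genes, 12 in more than 1 list) were chosen with earlier results of these data known. Genes were named by a rule: the 15 largest changes called in each direction, the 3 members of each list with the smallest p, all Ehrlich and SRP genes, lists of 10 or fewer, the 5 smallest p of the difference between series, and fixed examples. UGA1, CAR2, PUT3, TAT1, TAT2, OPT2, SUL2, FUR4, FET3, FES1, HSP104, SSE2, HSP82, CNS1, SSA1, OLE1, AGP2, CTH1, RPO31, TFC3, SDA1, HSP78, SIS1, CNE1, KAR2, TSL1, TPS1, COX4, RPN3, ASN1 and ENO1 lie outside it and were chosen after their values were seen. Promoter sequences were not used here. HXT12, AAD6, STR1 and ICY2 of the lists were not matched.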

Additional observations from a re-analysis of the deposited data

Results flagged for a closer look

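Over the 5 inputs at 0 min, 29 lists and genes were compared with Dixon's test (critical value 0.71), and in 9 of them 1 input stood apart. They were the 24 lists and 5 genes, PDR12, SSA4, BTN2, HSP42 and KAR2. These genes were picked by name and not by a rule, so their results cannot be set against a rate by chance. Of groups chosen without regard to their values about 1 in 20 would be marked by chance, and the 5 series differ in strain and ligase. The Ubc6 input stood apart in PDR12 (602 CPM), SSA4 (802 CPM), BTN2 (255 CPM), HSP42 (285 CPM) and the ER unfolded protein response list (1.07% of footprints, against 0.583 to 0.700% in the others), each above the other 4. The Sec63 input with cycloheximide was the lowest in the list of other nutrient and ion transporters, at 1.65% of footprints against 2.00 to 2.08%. The Tom20 input, the only W303 strain, was apart in cytosolic ribosomal proteins (20.1%), in oxidative and xenobiotic stress (0.846%) and in respiration (1.85%). It holds no 15 min library but entered the fit across the 15 inputs.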

How the results depend on the processing

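With the 4 libraries alone (1 residual degree of freedom) edgeR called 114 genes higher and 233 lower, and 93 and 199 of these were among the 277 and 448. Thinning the 4 libraries to the smallest gave 184 and 350, no series block gave 138 and 313, and DESeq2 gave 426 and 626, which held all 277 and all 448. Leaving out 1 series gave 38 to 310 genes higher and 43 to 488 lower, the lowest without the Ubc6 series. Scaling by library totals gave 191 higher and 482 lower (28.4% of calls higher, against 38.2%), and median centring 342 and 389 (46.8%). The cause of these shifts was not tested. The 30 min counts of the 3 other series ran from 385 to 2158 with 1 series left out, the lowest when the Sec63 series lacking cycloheximide was left out. No gene differed between series under any of 5 alternatives by edgeR or DESeq2.

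The text gives changes for 111 genes, 100 of them called, each with up to 14 alternatives. In 1398 pairs of called gene and alternative the direction reversed in 1, GAP1 without a series block (-0.17), and the call was lost in 224, most often without the Ubc6 series (55 genes) or the Sec63 series (51 genes), where 1 library at 15 min remains. Among genes not called, PDR5 turned to -0.092 with 4 libraries and -0.081 with 8 libraries, KAR2 to 0.16 without a block and ran from -0.38 to 0.41 with 1 series left out, and SRP72 ran from -0.17 to 0.10, each highest without the Ubc6 series. Directions of list medians kept their sign under library totals and median centring except for SRP genes, ribosomal proteins and Gcn4 targets, whose medians lie between -0.06 and 0.04. Depth limits the Ubc6 series most, with 2.042 M footprints at 0 min. The 15 and 0 min libraries were matched by series, which was the block of the fit.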
